A study of Mus musculus with 16 samples.

Results

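The genes described here are 38 components of the lysosome: 11 cathepsins and other peptidases, 9 glycosidases, 4 sulfatases, 4 lipid and thioester hydrolases, 3 activators and lipid carriers, 6 membrane proteins and the transcription factor Tfeb. They were taken by gene name from a list of lysosomal functions, which was drawn up with earlier results of these data known. All 38 were found among the 39179 genes counted in each library, and all 38 passed the filter on low counts that left 18074 genes for testing.

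The study asked what activation of Tert, the catalytic subunit of telomerase, changes in neurons of adult mice. Total RNA of 4 groups was sequenced, with 4 libraries each: neurons of cortex after vehicle or after tamoxifen (cortical control and cortical tamoxifen below) and neurons of hippocampus after the same treatments (hippocampal control, hippocampal tamoxifen). All groups came from animals labelled TERT-AD on the strain B6.129S6.SvEvTac, so controls carried that background too and received vehicle in place of tamoxifen. Tamoxifen is the drug used to switch on inducible recombinases. The Cre driver and its promoter, the Alzheimer transgenes behind the letters AD, the animals' exact age, the number of animals and the isolation procedure are not stated in the labels used here.

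Lysosomes are acidic vesicles that break down proteins, glycans and lipids brought in by endocytosis and autophagy. Their enzymes are soluble hydrolases, sorted through the mannose 6-phosphate pathway, while LAMP proteins coat the inner face of the membrane and channels and carriers move ions and cholesterol across it. In the brain, neurons depend on lysosomes to clear material over a long life, and microglia and other phagocytes are particularly rich in them. TFEB binds an E-box with the core CACGTG, the CLEAR element, near the start of many lysosomal genes, and loss of single hydrolases causes storage diseases of the nervous system.

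Promoter letters of the members are shown first, as description. Whether they bear on any difference in level was not tested. A RefSeq table for build GRCm38.p6 (the mm10 assembly) gave windows from 250 bases before to 50 bases after the start site, and 33 of the 38 genes had a window. Asah1, Ctsb, Ctsh, Galns and Npc1 had none there. The core CACGTG, which reads the same on both strands, occurred in 12 of the 33 genes, against 8.09% of all 27025 genes with windows of the same length. The longer GTCACGTG, searched on both strands and containing the core, occurred in 9 of the 33 against 2.55% of all genes. TCACGTGAC occurred in 3 (Ctsa, Gla and Mcoln1) against 0.895%, and with a further G before it in 0 against 0.37%. The letters were not particular to the members. Of 64 other lysosomal genes with a window, 15 held the core, 9 GTCACGTG, 6 TCACGTGAC and 2 the form with the further G. These are matches of letters only, in a class of genes from which the element is already known, and say nothing of binding. The lines below give 30 bases around the site nearest the start for 8 genes that hold GTCACGTG, chosen so that large and small regional differences are both shown. In Lamp1 the longer letters are at another place in the window. The lines are written 5′ to 3′ on the gene's own strand with the core in capitals.
Glb1: ctgcttctgagtCACGTGgcctacagaggc
Naglu: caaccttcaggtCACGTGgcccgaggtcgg
Gla: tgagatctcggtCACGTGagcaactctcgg
Lgmn: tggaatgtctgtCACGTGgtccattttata
Ctsa: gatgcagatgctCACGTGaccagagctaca
Sgsh: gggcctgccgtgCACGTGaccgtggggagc
Lamp1: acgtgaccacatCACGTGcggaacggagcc
Mcoln1: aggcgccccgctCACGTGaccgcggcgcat

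The first 6 of these belong to genes that passed the test for a higher level in hippocampal than in cortical controls. The last 2 belong to Lamp1 and Mcoln1, which were also higher there (log2 fold change 0.31 and 0.25) but did not pass. Arsa, the member with GTCACGTG that is not shown, did not pass either (0.45, edgeR adjusted p = 0.131). The Glb1 window is chr9:114401018-114401047 on the plus strand, with the core 48 bases before the start, and the Naglu window is chr11:101070009-101070038 on the plus strand, 73 bases before it. The Lgmn window is chr12:102439124-102439153 on the minus strand, 49 bases before the start, and the Ctsa window is chr2:164833766-164833795 on the plus strand, at position 6 after it. The Sgsh window is chr11:119355522-119355551 on the minus strand (29 bases before the start), the Lamp1 window chr8:13159134-13159163 on the plus strand (15 bases before) and the Mcoln1 window chr8:3500462-3500491 on the plus strand (45 bases before).

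Gla is shown at more length because its window holds the core 2 times, the nearer 194 bases before the start site of the RefSeq table, and because it had the largest cortical tamoxifen difference of the 38 genes. The 130 bases run from chrX:134601126-134601255 on the minus strand. They end next to the gene's first base in the deposited annotation, which lies upstream of the RefSeq start site.
Gla: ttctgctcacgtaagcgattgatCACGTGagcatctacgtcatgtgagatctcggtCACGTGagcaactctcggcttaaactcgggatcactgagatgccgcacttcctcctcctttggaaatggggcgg

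Libraries held 33236178 to 57195203 counts in genes. Libraries 1 and 2 of a group, and libraries 3 and 4, were so alike that they were added up and treated as sample A and sample B, which leaves 8 samples, 2 per group. Nothing in the labels says whether samples came from separate animals, so p-values cover only the spread among these samples, which may be technical. Levels are given as CPM, counts scaled to library size by the trimmed mean of M values (TMM), sample A before sample B. The samples are labelled neurons but held transcripts of other cells. The summed level of 8 neuron markers (among them Rbfox3, Snap25 and Slc17a7) was 2002 to 4493 CPM, that of 7 oligodendrocyte markers 21230 to 81750 CPM, that of 7 astrocyte markers 5864 to 8505 CPM and that of 14 microglia markers 997.4 to 2599 CPM. Samples A and B differed in every group. Above 2000 counts their libraries differed by 694 to 758 times the Poisson variance in the cortical tamoxifen group and by 13.6 to 73.2 times in the other groups. Cortical tamoxifen B had the highest neuron sum and the lowest oligodendrocyte sum. The sum of 6 choroid plexus markers was 1081 and 7.20 CPM in cortical controls, 6095 and 4.83 CPM in cortical tamoxifen samples, 15030 and 7419 CPM in hippocampal controls and 41.97 and 7654 CPM in hippocampal tamoxifen samples.

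Among the 38 genes, levels per length differed widely. By deposited RPKM (reads scaled by exon length and library total), averaged over the 16 libraries, prosaposin (Psap) was the most abundant at 211, followed by the cysteine protease Ctss at 88.1, the membrane glycoprotein Lamp1 at 78.3, the tetraspanin Cd63 at 49.3, the asparaginyl endopeptidase Lgmn at 41.1 and the cysteine protease Ctsb at 36.3. The range over single libraries was 119 to 347 for Psap and 43.3 to 162 for Ctss. In all, 18 genes had a mean above 10 RPKM and 5 a mean under 1 RPKM. These 5 were Sgsh (0.88), Gla (0.827), Galns (0.757), Manba (0.751) and Ctsk (0.484). Counts of the members ranged from 21 to 81273 per library. The spans of 14 members overlap another gene, and the strand setting of the counting is not given, so their counts may include reads of the neighbour (Ctsa with Pltp and Neurl2, Glb1 with Tmppe, Sgsh with Card14 and Ctsb with Fdft1 are examples).

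**Figure D1:**
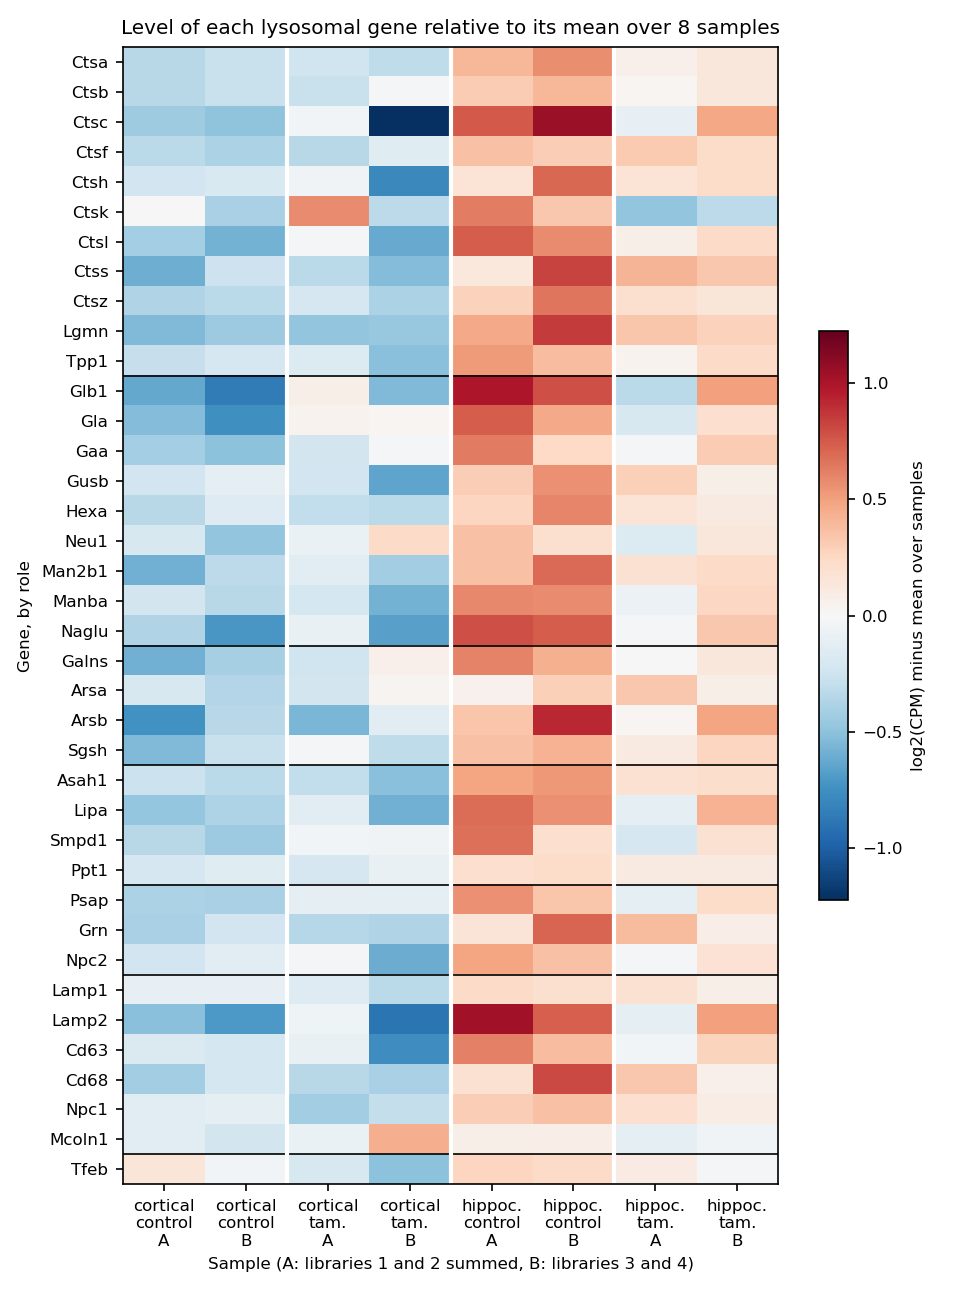
Each row is a lysosomal gene, ordered by role with lines between roles, and each column a sample; colour gives log2(CPM) minus the gene's mean over the 8 samples. The hippocampal controls are the reddest columns, and 36 of 38 genes had their highest level in a hippocampal control, against 31.0% of all genes tested.

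The comparison with the largest median difference in these genes was the one between regions in controls. All 38 genes had a positive log2 fold change for hippocampus over cortex, against 50.1% of all genes tested, and in all 38 both hippocampal controls stood above both cortical controls, against 34.6% of all genes. Of the 38, 20 passed the edgeR quasi-likelihood test at an adjusted p under 0.05 and were higher in hippocampus, against 2.71% of all genes (489 higher and 629 lower in all), and 0 were lower, against 3.48%. At an unadjusted p under 0.05, 35 were higher, against 14.7% of all genes. The median log2 fold change was 0.80 for the members and 0.00 for all genes tested. By role, 7 of 11 peptidases, 7 of 9 glycosidases, 2 of 4 sulfatases, 2 of 4 lipid and thioester hydrolases, 1 of 3 activators and carriers and 1 of 6 membrane proteins passed, and Tfeb did not. In bulk RNA a different share of cells of a type and a different amount of RNA per cell cannot be told apart.

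The sign in all 38 genes was the same under every alternative run, while the number of calls was not. Leaving out any 1 of the 4 control samples left 0 members called, against at most 0.00529% of all genes higher. The group concerned then has 1 sample, which is assumed to vary like the other groups. Without hippocampal tamoxifen A 5 were called (0.787% of all genes higher) and without hippocampal tamoxifen B 8 (1.06%). Without cortical tamoxifen A or without cortical tamoxifen B 33 were called, against 9.38% of all genes higher in each case. Without cortical tamoxifen B and hippocampal tamoxifen A together 34 were called, against 13.3%. Scaled to the sum of gene rows without TMM, 32 members and 1910 genes in all (10.6%) were called higher (154 lower), and the median of all genes shifted to 0.39 with that of the members at 1.18.

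**Figure D2:**
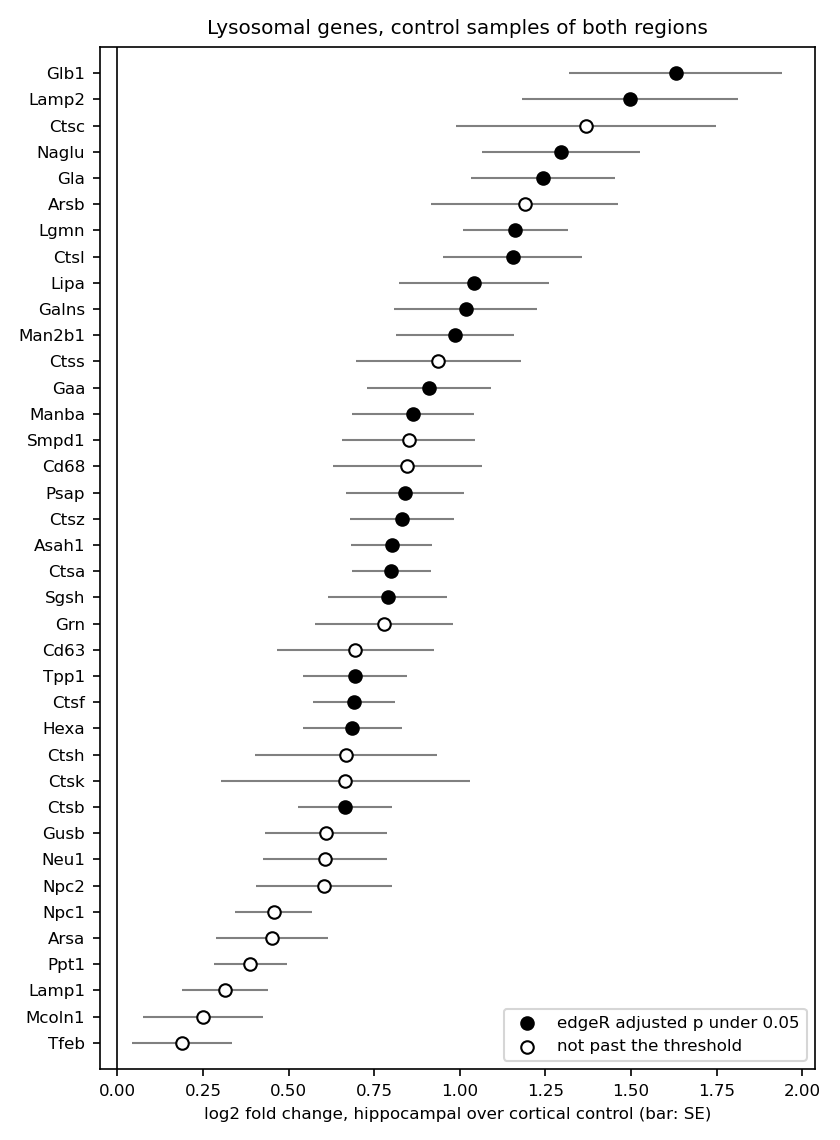
The log2 fold change of each gene, hippocampal over cortical control, is plotted with its standard error, ordered by size; filled points passed the edgeR test at an adjusted p under 0.05. All 38 points lie to the right of 0, from Tfeb at 0.19 to Glb1 at 1.63.

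Among the peptidases, Lgmn, the asparaginyl endopeptidase that also processes other cathepsins (chr12:102394084-102439813, minus strand), stood at 95.2 and 102 CPM in cortical controls, 99.2 and 101 CPM in cortical tamoxifen samples, 191 and 250 CPM in hippocampal controls and 175 and 168 CPM in hippocampal tamoxifen samples. All 4 hippocampal samples lay above all 4 cortical ones. In controls it was 2.24-fold higher in hippocampus (log2 fold change 1.16, SE 0.15, edgeR adjusted p = 0.0226), the smallest p of the 38 genes. Ctsl, a broad cysteine endopeptidase (chr13:64363214-64370306, minus strand), stood at 41.2 and 36.7 CPM in cortical controls, 53.9 and 35.8 CPM in cortical tamoxifen samples, 91.5 and 81.9 CPM in hippocampal controls and 57.8 and 64.7 CPM in hippocampal tamoxifen samples. Its control difference was 1.15 on the log2 scale (SE 0.20, edgeR adjusted p = 0.033), and the hippocampal tamoxifen samples lay between the hippocampal controls and the cortex.

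Ctsb, a cysteine protease that also trims peptides from their ends, stood at 211 and 221 CPM in cortical controls, 221 and 264 CPM in cortical tamoxifen samples, 331 and 354 CPM in hippocampal controls and 272 and 294 CPM in hippocampal tamoxifen samples. It was 1.58-fold higher in hippocampal controls (log2 fold change 0.66, SE 0.14, edgeR adjusted p = 0.0416). Ctsa, the carboxypeptidase that holds β-galactosidase and the sialidase Neu1 in a complex, stood at 60.2 and 63.1 CPM in cortical controls, 64.3 and 61.6 CPM in cortical tamoxifen samples, 101 and 113 CPM in hippocampal controls and 79.7 and 84.0 CPM in hippocampal tamoxifen samples. The 4 cortical samples of Ctsa spanned less than the 2 hippocampal controls did, and the control difference was 0.80 (SE 0.12, edgeR adjusted p = 0.0243).

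Ctss, a cysteine protease typical of microglia and antigen-presenting cells, stood at 116 and 148 CPM in cortical controls, 140 and 123 CPM in cortical tamoxifen samples, 193 and 313 CPM in hippocampal controls and 236 and 222 CPM in hippocampal tamoxifen samples. The regions did not overlap, but the 2 hippocampal controls lay far apart, and the difference of 0.94 (SE 0.24) did not pass (edgeR adjusted p = 0.0637). Ctsk, a collagen-degrading protease known from osteoclasts, was near the floor of this list, at 1.10 and 0.845 CPM in cortical controls, 1.65 and 0.889 CPM in cortical tamoxifen samples, 1.71 and 1.39 CPM in hippocampal controls and 0.794 and 0.888 CPM in hippocampal tamoxifen samples. The other peptidases that passed were Ctsf (0.69), Ctsz (0.83) and the tripeptidyl peptidase Tpp1 (0.69), all as log2 fold changes. Ctsc, which activates granule proteases, had 1.37 (SE 0.38) and Ctsh 0.67 (SE 0.27), and neither passed.

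The largest regional difference of the 38 genes was that of a glycosidase. Glb1, the β-galactosidase that removes galactose from gangliosides (chr9:114401076-114474376, plus strand), stood at 8.45 and 7.21 CPM in cortical controls, 13.7 and 8.99 CPM in cortical tamoxifen samples, 25.9 and 22.6 CPM in hippocampal controls and 10.4 and 18.5 CPM in hippocampal tamoxifen samples. It was 3.10-fold higher in hippocampal than cortical controls (log2 fold change 1.63, SE 0.31, edgeR adjusted p = 0.0378), and with tamoxifen the regions overlapped. Naglu, which removes N-acetylglucosamine from heparan sulfate (chr11:101070012-101077672, plus strand), stood at 9.02 and 7.08 CPM in cortical controls, 11.0 and 7.34 CPM in cortical tamoxifen samples, 20.1 and 19.5 CPM in hippocampal controls and 11.5 and 14.6 CPM in hippocampal tamoxifen samples. The regions did not overlap for Naglu, and controls differed 2.46-fold (log2 fold change 1.30, SE 0.23, edgeR adjusted p = 0.0334).

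Gla, the α-galactosidase A that degrades globotriaosylceramide (chrX:134588149-134601125, minus strand), stood at 2.79 and 2.38 CPM in cortical controls, 4.13 and 4.08 CPM in cortical tamoxifen samples, 6.70 and 5.54 CPM in hippocampal controls and 3.51 and 4.64 CPM in hippocampal tamoxifen samples. Gla was thus 2.37-fold higher in hippocampus among controls (log2 fold change 1.24, SE 0.21, edgeR adjusted p = 0.0326), while with tamoxifen both cortical values lay between the hippocampal ones. Gaa, the acid α-glucosidase that digests glycogen, stood at 90.3 and 84.7 CPM in cortical controls, 103 and 119 CPM in cortical tamoxifen samples, 186 and 143 CPM in hippocampal controls and 119 and 149 CPM in hippocampal tamoxifen samples. Its control difference of 0.91 (SE 0.18) passed (edgeR adjusted p = 0.0389).

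Manba, the β-mannosidase, stood at 6.78 and 6.27 CPM in cortical controls, 6.81 and 5.32 CPM in cortical tamoxifen samples, 11.9 and 11.8 CPM in hippocampal controls and 7.53 and 9.46 CPM in hippocampal tamoxifen samples. The regions did not overlap, and controls differed by 0.86 (SE 0.18, edgeR adjusted p = 0.0416). Neu1, the sialidase partner of Ctsa, stood at 13.1 and 10.8 CPM in cortical controls, 14.2 and 17.8 CPM in cortical tamoxifen samples, 19.2 and 17.2 CPM in hippocampal controls and 13.4 and 16.6 CPM in hippocampal tamoxifen samples. Its control difference of 0.61 (SE 0.18) did not pass (edgeR adjusted p = 0.0885). The remaining glycosidases were the α-mannosidase Man2b1 (log2 fold change 0.99) and the β-hexosaminidase subunit Hexa (0.69), which passed, and the β-glucuronidase Gusb (0.61), which did not.

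Sulfatases remove sulfate groups from glycosaminoglycans and sulfatide. Galns, which acts on keratan sulfate, stood at 1.96 and 2.23 CPM in cortical controls, 2.49 and 3.08 CPM in cortical tamoxifen samples, 4.48 and 3.98 CPM in hippocampal controls and 2.95 and 3.25 CPM in hippocampal tamoxifen samples. It was 2.02-fold higher in hippocampal controls (log2 fold change 1.02, SE 0.21, edgeR adjusted p = 0.041). Sgsh, the heparan sulfamidase, also passed (0.79), whereas Arsb, which acts on dermatan sulfate, had 1.19 (SE 0.27, edgeR adjusted p = 0.0511) and the sulfatide-degrading Arsa 0.45, and neither passed.

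Of the lipid and thioester hydrolases, the acid ceramidase Asah1 stood at 25.9 and 24.7 CPM in cortical controls, 25.2 and 21.9 CPM in cortical tamoxifen samples, 43.4 and 44.8 CPM in hippocampal controls and 35.3 and 36.0 CPM in hippocampal tamoxifen samples. Its pairs of samples lay close together, and the control difference of 0.80 (SE 0.12) passed (edgeR adjusted p = 0.026). Smpd1, the acid sphingomyelinase, stood at 43.1 and 40.0 CPM in cortical controls, 53.5 and 53.0 CPM in cortical tamoxifen samples, 87.2 and 62.7 CPM in hippocampal controls and 47.3 and 62.0 CPM in hippocampal tamoxifen samples. Smpd1 missed the threshold narrowly at 0.85 (SE 0.19, edgeR adjusted p = 0.0503). The cholesteryl ester hydrolase Lipa passed (1.04), and the palmitoyl-protein thioesterase Ppt1 did not (0.39).

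Psap, the precursor of the saposins that present lipids to hydrolases (chr10:60277627-60302597, plus strand), stood at 680 and 674 CPM in cortical controls, 821 and 824 CPM in cortical tamoxifen samples, 1305 and 1120 CPM in hippocampal controls and 818 and 1038 CPM in hippocampal tamoxifen samples. Controls differed 1.79-fold (log2 fold change 0.84, SE 0.17, edgeR adjusted p = 0.0411), and hippocampal tamoxifen A lay just under both cortical tamoxifen samples. Grn, the progranulin gene, stood at 54.0 and 60.7 CPM in cortical controls, 56.0 and 55.2 CPM in cortical tamoxifen samples, 79.8 and 117 CPM in hippocampal controls and 93.2 and 75.6 CPM in hippocampal tamoxifen samples. Grn had 0.78 (SE 0.20) and did not pass (edgeR adjusted p = 0.064). Npc2, the soluble carrier that hands cholesterol to Npc1, stood at 74.4 and 79.7 CPM in cortical controls, 86.0 and 57.2 CPM in cortical tamoxifen samples, 122 and 112 CPM in hippocampal controls and 86.0 and 99.1 CPM in hippocampal tamoxifen samples. Its difference of 0.60 (SE 0.20) did not pass either (edgeR adjusted p = 0.107).

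Of the 6 membrane proteins, Lamp2 passed and the others did not. Lamp2, the receptor of chaperone-mediated autophagy (chrX:38401357-38456454, minus strand), stood at 47.8 and 42.0 CPM in cortical controls, 66.0 and 36.7 CPM in cortical tamoxifen samples, 140 and 114 CPM in hippocampal controls and 63.5 and 96.4 CPM in hippocampal tamoxifen samples. It was 2.82-fold higher in hippocampal controls (log2 fold change 1.50, SE 0.31, edgeR adjusted p = 0.0427). Its relative Lamp1, the abundant glycoprotein of the same membrane, stood at 260.0 and 261 CPM in cortical controls, 250.1 and 222 CPM in cortical tamoxifen samples, 329 and 319 CPM in hippocampal controls and 318 and 293 CPM in hippocampal tamoxifen samples. Lamp1 differed by 0.31 (SE 0.13) and did not pass (edgeR adjusted p = 0.161). Whether the 2 LAMP genes differ from each other was not tested.

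Cd68, the heavily glycosylated macrophage protein of this membrane, stood at 14.1 and 16.4 CPM in cortical controls, 15.0 and 14.5 CPM in cortical tamoxifen samples, 21.6 and 33.3 CPM in hippocampal controls and 23.9 and 19.9 CPM in hippocampal tamoxifen samples. The regions did not overlap for Cd68, with a control difference of 0.85 that did not pass (SE 0.22, edgeR adjusted p = 0.063). Npc1, the cholesterol exporter of the membrane, stood at 50.1 and 50.1 CPM in cortical controls, 40.7 and 44.6 CPM in cortical tamoxifen samples, 67.3 and 70.2 CPM in hippocampal controls and 63.1 and 58.1 CPM in hippocampal tamoxifen samples. Npc1 differed by 0.46 (SE 0.11, edgeR adjusted p = 0.0583), and the tetraspanin Cd63 by 0.69 (SE 0.23, edgeR adjusted p = 0.108).

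Mcoln1, the calcium-permeable channel of the lysosome (chr8:3500457-3515232, plus strand), stood at 14.1 and 13.2 CPM in cortical controls, 14.6 and 21.0 CPM in cortical tamoxifen samples, 16.2 and 16.3 CPM in hippocampal controls and 14.2 and 14.9 CPM in hippocampal tamoxifen samples. Its highest sample was cortical tamoxifen B, and the control difference was 0.25 (SE 0.18, edgeR adjusted p = 0.397). Tfeb, the transcription factor (chr17:47737030-47792419, plus strand), stood at 14.1 and 12.4 CPM in cortical controls, 11.0 and 8.93 CPM in cortical tamoxifen samples, 15.2 and 15.0 CPM in hippocampal controls and 13.6 and 12.6 CPM in hippocampal tamoxifen samples. Tfeb had the smallest regional difference of the 38 genes, 0.19 (SE 0.15, edgeR adjusted p = 0.439). Among genes with CACGTG in the promoter window, 9 of 12 passed in this comparison with a median of 0.86, and among those without it 8 of 21 with a median of 0.83.

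**Figure D3:**
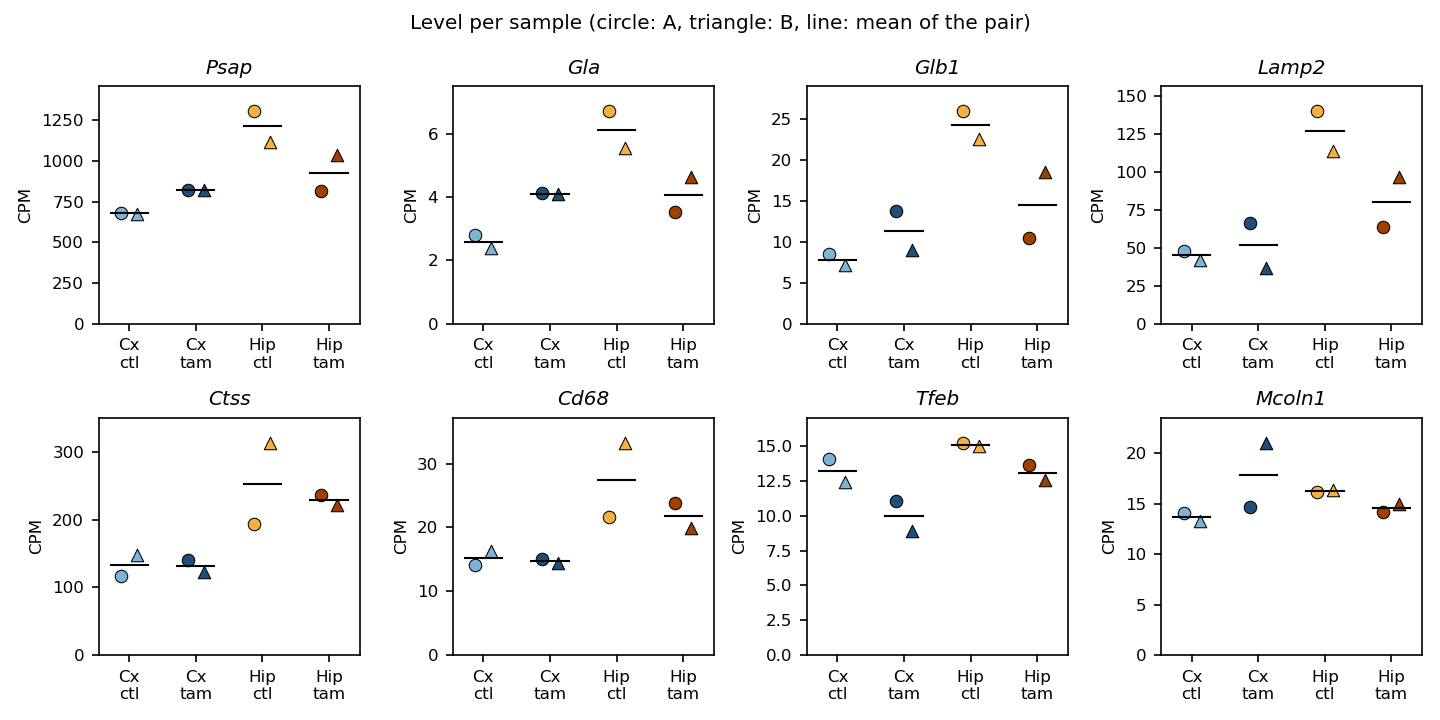
CPM of 8 lysosomal genes is plotted for each sample (Cx, cortex; Hip, hippocampus; ctl, control; tam, tamoxifen), with sample A as a circle, sample B as a triangle and a line at the mean of the pair; axes start at 0. Psap, Gla, Glb1 and Lamp2 are highest in hippocampal controls, and Ctss and Cd68 peak in hippocampal control B. Of the 8, Ctss, Cd68, Tfeb and Mcoln1 were not called between regions in controls.

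Markers of some other cells moved with the region. All 14 microglia markers were positive for hippocampus over cortex in controls, 7 of them called by edgeR, and their sum was 1066 and 1238 CPM in cortical controls and 1705 and 2599 CPM in hippocampal controls. No microglia marker was at 0, and Cx3cr1 stood at 147 and 161 CPM against 236 and 372 CPM. Of 6 border macrophage markers 4 were called higher, at sums of 2.38 and 2.42 CPM against 9.99 and 8.46 CPM, and of 6 fibroblast markers 2. The 8 neuron markers were all negative (0 called by edgeR, 4 at an unadjusted p under 0.05), at sums of 2909 and 3223 CPM against 2002 and 2017 CPM. The 6 choroid plexus markers were all positive without a call, at sums of 1081 and 7.20 CPM in cortical controls and 15030 and 7419 CPM in hippocampal controls. In cortical control B, the choroid plexus marker Kcne2 stood at 0.0282 CPM and Folr1 at 0.141 CPM. Of 7 oligodendrocyte markers 3 were positive and 4 negative (median -0.01, 0 called). Of 7 astrocyte markers 4 were positive and 3 negative (median 0.04, 1 called higher). The 6 endothelial markers were all negative (median -0.17, 0 called). The part of all these cells in the regional difference was not tested.

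Between the samples of a group, markers and lysosomal genes differed as follows. Hippocampal control B was above A for all 14 microglia markers and below A for all 6 choroid plexus markers, and 19 of the 38 genes were higher in B and 19 in A. Ctss, Cd68, Arsb and Grn were 1.62, 1.54, 1.50 and 1.47 times as high in B as in A, while Smpd1, Gaa and Lamp2 were 1.39, 1.31 and 1.23 times as high in A as in B. Hippocampal tamoxifen B was above A for all 6 choroid plexus markers and 0 of 14 microglia markers, and for 25 of the 38 genes (Arsb 1.37 times), with 13 higher in A. Cortical control A was above B for all 6 choroid plexus markers and 0 of 14 microglia markers, and for 18 of the 38 genes, with 20 higher in B. Hippocampal tamoxifen A, with choroid plexus markers at 41.97 CPM in sum, stood above all 4 cortical samples for 26 of the 38 genes, against 23.1% of all genes tested. Against cortical control B and cortical tamoxifen B, in which choroid plexus markers were at 7.20 and 4.83 CPM, it was higher for 31 of 38, against 33.1% of all genes tested, with a median log2 ratio of 0.40. The genes for which it did not exceed all cortical samples were Ctsc, Ctsk, Glb1, Gla, Neu1, Galns, Smpd1, Psap, Npc2, Lamp2, Mcoln1 and Tfeb. These comparisons of hippocampal tamoxifen A with cortex rest on 1 hippocampal sample. It and the cortical B samples were picked after their choroid plexus levels were seen. These levels were still higher in hippocampal tamoxifen A than in the cortical B samples. The microglia markers of hippocampal tamoxifen A summed to 1954 CPM, against 1238 CPM in cortical control B and 997.4 CPM in cortical tamoxifen B. The part of choroid plexus cells and microglia in these values was not tested.

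**Figure D4:**
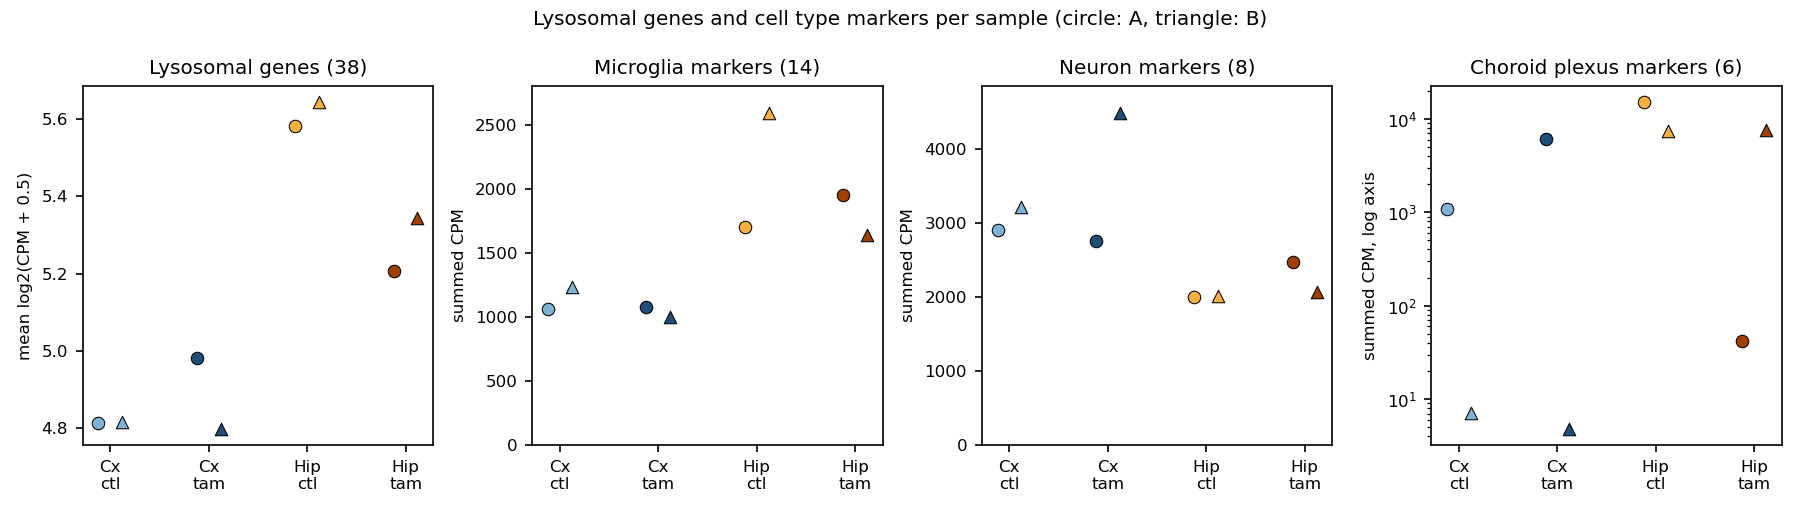
The mean log2(CPM + 0.5) of the 38 lysosomal genes and the summed CPM of microglia, neuron and choroid plexus markers (log axis for the last) are plotted per sample, with circles for A and triangles for B. The lysosomal mean is highest in the hippocampal controls (5.58 and 5.64), microglia markers peak in hippocampal control B and choroid plexus markers are lowest in cortical control B, cortical tamoxifen B and hippocampal tamoxifen A.

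In hippocampus, lysosomal genes stood lower with tamoxifen than in controls, without any passing the test. The log2 fold change was negative for 37 of 38 genes (38 when scaled to the sum of gene rows), against 51.3% of all genes tested. Arsa had 0.03. The median was -0.32, against -0.01 for all genes. In 30 of the 38 genes both tamoxifen samples stood below both controls, against 18.9% of all genes, and in 0 above, against 21.0%. The overlapping genes were Ctsf, Ctsh, Ctss, Gaa, Arsa, Arsb, Grn and Cd68.

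By edgeR 0 of 38 passed at an adjusted p under 0.05, against 0.0% of all genes, and DESeq2 and limma voom also called 0. At an unadjusted p under 0.05, 9 were lower, against 1.47% of all genes. The 9 were the peptidases Ctsa (-0.39, SE 0.11), Ctsk (-0.88, SE 0.36), Ctsl (-0.50, SE 0.20) and Lgmn (-0.36, SE 0.15), the glycosidases Glb1 (-0.74, SE 0.30), Gla (-0.59, SE 0.21), Manba (-0.48, SE 0.18) and Naglu (-0.60, SE 0.23), and the ceramidase Asah1 (-0.31, SE 0.12). Each had an edgeR adjusted p of 1. Among the others, Lamp2 had -0.66 (SE 0.31), Psap -0.39 (SE 0.17), Ctsb -0.28 (SE 0.14), Npc2 -0.34 (SE 0.20), Tfeb -0.20 (SE 0.15), Npc1 -0.18 (SE 0.11), Mcoln1 -0.16 (SE 0.18) and Lamp1 -0.09 (SE 0.13).

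Markers of microglia and choroid plexus had negative values as well. All 14 microglia markers were negative with a median of -0.25, though the groups overlapped (1954 and 1640 CPM in sum with tamoxifen, 1705 and 2599 CPM in controls). All 6 choroid plexus markers were negative, at 41.97 and 7654 CPM against 15030 and 7419 CPM, and all 6 border macrophage markers were negative with a median of -0.85, while the 8 neuron markers were all positive with a median of 0.26. Of 7 astrocyte markers 6 were positive (median 0.31), and all 7 oligodendrocyte markers were negative (median -0.14). Without hippocampal tamoxifen A all 38 genes were negative with a median of -0.27. Without hippocampal control B, 33 were negative and 5 positive, with a median of -0.26. Among these 5 were Ctss (0.24), Grn (0.08) and Cd68 (0.02), which were negative in the fit of all samples. The part of these cells in the tamoxifen difference was not tested.

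In cortex the genes did not move one way. With tamoxifen 23 of 38 had a positive and 15 a negative log2 fold change (55.4% positive and 44.6% negative over all genes), with a median of 0.07 against 0.04 for all genes. Scaled to the sum of gene rows, 33 were positive, but the medians of all genes and of the members then both shifted to 0.25. Both tamoxifen samples stood above both controls for 9 genes, against 16.2% of all genes, namely Ctsb, Glb1, Gla, Gaa, Neu1, Galns, Smpd1, Psap and Mcoln1. They stood below both controls for Gusb, Lamp1, Npc1 and Tfeb, 4 of 38 against 15.0% of all genes.

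By edgeR 0 of 38 passed, against 0.0% of all genes, and DESeq2 and limma voom called 0 as well. At an unadjusted p under 0.05 there was 1 higher gene, Gla (0.67, SE 0.21, edgeR adjusted p = 0.83), against 2.47% of all genes. There was 1 lower gene, Tfeb (-0.41, SE 0.15, edgeR adjusted p = 0.83), against 2.51%. Gla was at 1.59 times its control level in these samples, and its 2 tamoxifen values were nearly equal. Other positive values were Glb1 (0.53, SE 0.31), Neu1 (0.42, SE 0.18), Galns (0.42, SE 0.21), Mcoln1 (0.38, SE 0.18), Smpd1 (0.36, SE 0.19), Gaa (0.34, SE 0.18) and Psap (0.28, SE 0.17). Without cortical tamoxifen A, which leaves 1 sample in that group, Mcoln1 was called higher, against 6.14% of all genes, and Tfeb lower, against 4.53%. In the fit of all samples the 7 astrocyte markers were negative (median -0.44, 4 at an unadjusted p under 0.05), as were the 7 oligodendrocyte (median -0.15), the 6 endothelial (median -0.39) and 13 of 14 microglia markers (median -0.18). The 6 choroid plexus markers were positive (median 2.46), as were 7 of 8 neuron markers (median 0.40). The groups overlapped for every choroid plexus, neuron, oligodendrocyte and endothelial marker. Neuron sums, for example, were 2759 and 4493 CPM with tamoxifen and 2909 and 3223 CPM in controls. Both tamoxifen samples stood below both controls for 6 of 7 astrocyte and 6 of 14 microglia markers, against 15.0% of all genes. The part of these cells in the tamoxifen difference in cortex was not tested.

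Cortical tamoxifen B and A differed among themselves for many members. Sample A was above B for 26 of 38 genes, among them Ctsc (2.29 times), Lamp2 (1.80 times), Ctsh (1.68 times), Cd63 (1.59 times) and Glb1 (1.53 times), and for all 6 choroid plexus and 11 of 14 microglia markers. B was above A for Mcoln1 (1.44 times), Arsb (1.34 times), Neu1 (1.25 times) and Galns (1.24 times). Its neuron marker sum was 4493 CPM against 2759 CPM in A, and the part of that in these values was not tested.

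**Figure D5:**
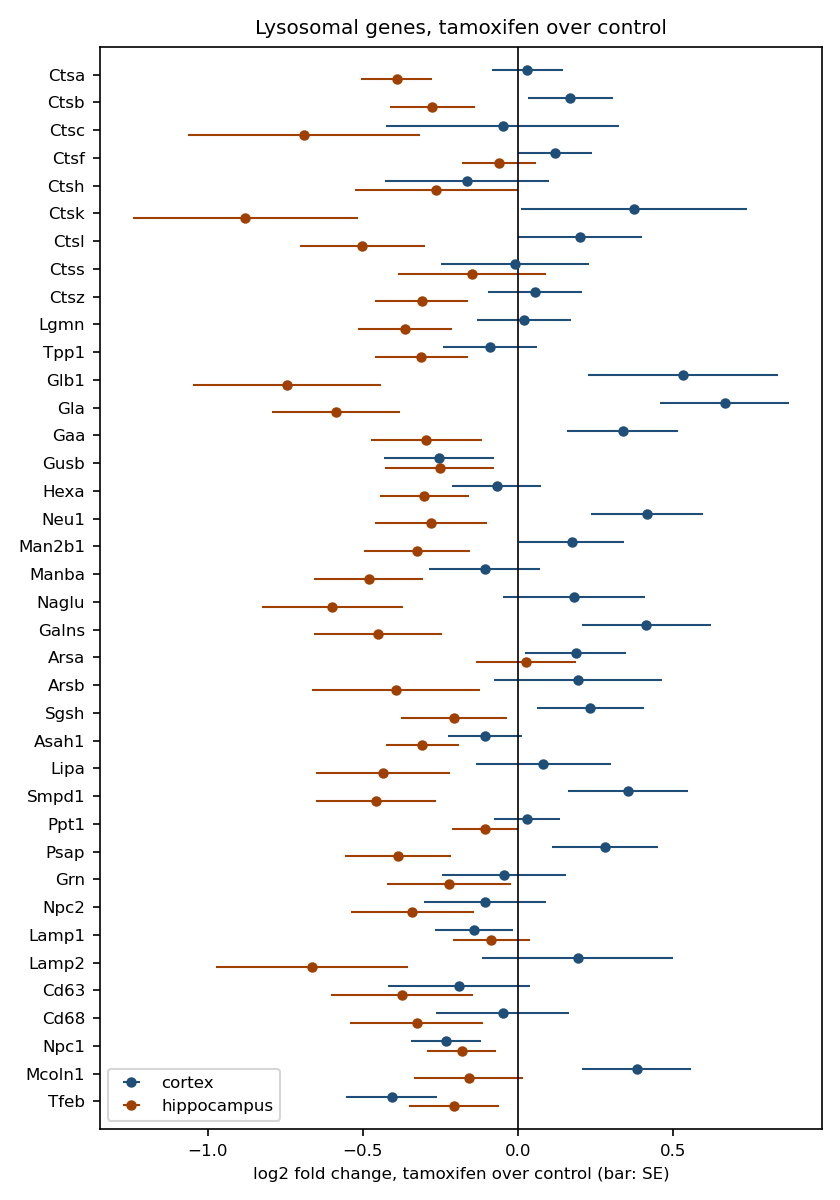
For each lysosomal gene the log2 fold change of tamoxifen over control is plotted with its standard error, in cortex (blue) and hippocampus (brown). Hippocampal points lie left of 0 for 37 of 38 genes, cortical points on both sides, and no point passed the edgeR test.

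The test of the difference between the 2 effects, hippocampus minus cortex, gave negative values for 34 of 38 genes, against 54.2% of all genes, with a median of -0.40 against -0.04. Scaled to the sum of gene rows all 38 were negative, with the median of all genes at -0.28. None of the 38 passed in edgeR or DESeq2 (edgeR, 0.0% of all genes), and limma voom called Psap. At an unadjusted p under 0.05, 11 were negative, against 2.77% of all genes. They were Glb1 (-1.28, SE 0.43), Gla (-1.25, SE 0.29), Ctsk (-1.25, SE 0.51), Galns (-0.87, SE 0.29), Smpd1 (-0.81, SE 0.27), Naglu (-0.78, SE 0.32), Neu1 (-0.70, SE 0.26), Ctsl (-0.70, SE 0.28), Psap (-0.67, SE 0.24), Gaa (-0.63, SE 0.25) and Ctsa (-0.42, SE 0.16), each with an edgeR adjusted p of 0.889. In the same contrast all 6 choroid plexus markers were negative (median -3.97), as were 5 of 6 border macrophage markers (median -1.07). All 7 astrocyte markers were positive (median 0.75, 5 at an unadjusted p under 0.05), as were the 6 endothelial markers (median 0.42). In cortex the groups overlapped for every choroid plexus and endothelial marker, and the part of these cells in the difference was not tested. The region comparison of controls uses the same control samples as both tamoxifen comparisons, so their values are not independent.

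With tamoxifen the median regional difference was smaller than in controls, although the test of that difference passed for 0 of 38 genes in edgeR. The log2 fold change for hippocampus over cortex was positive in 34 of 38 genes (47.5% of all genes) and negative in 4 (52.5% of all genes), with a median of 0.46 against -0.03. The exceptions were Ctsk (-0.59), Mcoln1 (-0.29), Neu1 (-0.09) and Gla (-0.01), of which Neu1 and Gla are close to 0. Both hippocampal samples stood above both cortical ones in 27 genes, against 22.4% of all genes, and below them in 1 (Ctsk), against 24.1%. By edgeR 0 of 38 passed, against 0.426% of all genes higher (77) and 0.692% lower (125), with 18 higher at an unadjusted p under 0.05 against 9.57%. DESeq2 called 7 higher, against 5.27% of all genes, and limma voom 23, against 6.99%.

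The values nearest the threshold were those of Lgmn (0.78, SE 0.15, edgeR adjusted p = 0.0587) and Asah1 (0.60, SE 0.12, edgeR adjusted p = 0.06). Ctss had 0.80 (SE 0.24) and Npc1 0.51 (SE 0.11). Without cortical tamoxifen A, 20 of 38 were called. Of these 19 were higher, against 8.93% of all genes, and Mcoln1 lower, against 12.7%. Scaled to the sum of gene rows 0 members were called (22 genes higher and 4 lower in all), with the median of all genes at 0.12. All 4 hippocampal samples were above all 4 cortical ones for 26 genes, against 11.8% of all genes tested.

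Of 88 other genes of the lysosome 86 were tested, and in controls 67 were positive for hippocampus, 13 called higher and 2 lower by edgeR, with a median of 0.36. Of 22 other hydrolases 21 were positive and 6 called, among them the aspartic protease Ctsd (1.36, SE 0.22, edgeR adjusted p = 0.0299). Ctsd stood at 327 and 369 CPM in cortical controls, 424 and 278 CPM in cortical tamoxifen samples, 831 and 958 CPM in hippocampal controls and 546 and 601 CPM in hippocampal tamoxifen samples.

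Of 10 genes that sort proteins to the lysosome 10 were positive and 2 called higher, among them the mannose 6-phosphate receptor gene M6pr, and of 16 other membrane proteins 14 were positive and 4 called higher (Laptm4b, Laptm5, Cln3 and Ctns). The subunits of the V-ATPase, the proton pump that acidifies lysosomes, were positive for 11 of 18 with a median of 0.05, and edgeR called 0 (2 higher and 1 lower at an unadjusted p under 0.05). Of 15 genes of the TFEB family and nutrient sensing 7 were positive, with a median of -0.01, and 1 was called lower, the Rag GTPase Rragd (-0.71, SE 0.12, edgeR adjusted p = 0.0328). Tfe3, a relative of Tfeb, had 0.09 (SE 0.15), and Mitf, another relative, had 1.50 (SE 0.65), without passing. Mitf stood at 23.6 and 17.2 CPM in hippocampal controls, 6.11 and 15.8 CPM in hippocampal tamoxifen samples, 7.93 and 6.45 CPM in cortical controls and 14.3 and 4.23 CPM in cortical tamoxifen samples. Of 5 cathepsin inhibitors, Serpina3n was called higher (1.62, SE 0.29, edgeR adjusted p = 0.0334) and Cst6 lower (-1.20, SE 0.18, edgeR adjusted p = 0.026). Except for Ctsd, Tfe3 and Mitf, the genes named in the account of these other lists were picked after their values were seen.

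With tamoxifen in hippocampus 70 of the 86 other lysosomal genes were negative, with a median of -0.14, 0 called by edgeR and 6 lower at an unadjusted p under 0.05. In cortex 59 were positive, with a median of 0.08 and 0 called by edgeR (5 higher at an unadjusted p under 0.05). The V-ATPase subunits had 15 of 18 positive there, with a median of 0.44, and 15 of 18 negative in hippocampus, with a median of -0.10. None of them passed in edgeR. The summed level of the 19 listed subunits was 1157 and 1189 CPM in cortical controls and 1211 and 1890 CPM in cortical tamoxifen samples. Both cortical tamoxifen samples stood above both controls for 6 of the 18 tested, against 16.2% of all genes. They stood below for 1, against 15.0%.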

How the data were processed

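Total RNA of 16 libraries in 4 groups was measured by sequencing. Per the submitters' processing notes, the authors used STAR to align and HTSeq to count, on mm10. Versions, annotation release and strand setting: not given in the sources used here. Each deposited count is a whole number of reads per gene, not normalized. The deposited RPKM beside it, per the file headers, was recomputed from count, exon length and total for 100% of values, served to rank genes by level and entered no test. Reads given to no gene stayed out (27.5 to 35.4% aligned to several places, 3.64 to 7.93% outside genes).

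Libraries 1 and 2, and 3 and 4, of a group were added. In a bin of low counts starting at 20 they differed by 2.58 to 2.81 times the Poisson variance. Other pairs of a group differed by 3.59 to 17.6 times in that bin. Above 2000 counts these ranges were 3.11 to 6.49 and 13.6 to 758 times. The 8 samples held 83527470 to 108293362 counts in genes. Genes were filtered with filterByExpr, scaled by TMM and fitted, 1 mean for each group, to all samples with the robust quasi-likelihood test of edgeR 4.0.16 (R 4.3.3). Benjamini-Hochberg adjustment covered 18074 genes, with a threshold of 0.05. The SE of a log2 fold change is its ratio to the root of F. CPM use TMM library sizes, and the log scale adds 0.5 CPM.

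The members and lists were chosen with earlier results of these data known. Values per sample are given for Tfeb, Mcoln1, Lamp1, Lamp2, Ctsb, Ctsl, Ctss, Cd68, Grn, Psap, Npc1, Npc2 and Gla, for members with an unadjusted p under 0.05 in a tamoxifen contrast or their difference, and for the 5 largest called members of each region contrast. Some genes of the other lists are not reported here. Alternatives were other scalings, no filter, mitochondrial genes left out, DESeq2 1.42.0, limma voom (limma 3.58.1), separate libraries, replicate blocks and leaving out each sample. The scripts were tested on simulated data.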

Additional observations from a re-analysis of the deposited data

Results flagged for a closer look

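For 8 of the 38 genes both cortical tamoxifen samples stood above both cortical controls while both hippocampal tamoxifen samples stood below both hippocampal controls, so that tamoxifen and control differed in opposite directions in the 2 regions. The same was seen for 4.06% of all genes tested. The difference of the effects, hippocampus minus cortex on the log2 scale, was -1.28 for the β-galactosidase Glb1, -1.25 for the α-galactosidase Gla, -0.87 for the sulfatase Galns, -0.81 for the sphingomyelinase Smpd1, -0.7 for the sialidase Neu1, -0.67 for prosaposin (Psap), -0.54 for the channel Mcoln1 and -0.45 for the protease Ctsb. The difference was tested and passed for none of them (edgeR adjusted p = 0.889 for each). Scaled to the sum of gene rows, 16 of the 38 genes showed such opposite directions, against 6.82% of all genes tested. Choroid plexus markers had values of opposite sign in the 2 regions, but the cortical groups overlapped. All 6 were positive in cortex (median log2 fold change 2.46) and all 6 negative in hippocampus (median -1.54). Their cortical sums were 6095 and 4.83 CPM with tamoxifen and 1081 and 7.20 CPM in controls. Both cortical tamoxifen samples stood above both controls for 0 of the 6. Both hippocampal tamoxifen samples stood below both controls for 3, against 18.9% of all genes. Astrocyte markers had medians of -0.44 in cortex and 0.31 in hippocampus. The part of these cells in the pattern was not tested.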

How the results depend on the processing

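In controls the regional difference was positive for all 38 genes under every alternative. The number called, 20, was 32 when scaled to the sum of gene rows, 35 with 16 separate libraries, 34 without cortical tamoxifen B and hippocampal tamoxifen A (chosen after seeing the data), 32 with DESeq2, 35 with limma voom (for these tools 9.25% and 9.66% of all genes were higher) and 0 to 33 when leaving out 1 sample. With tamoxifen, 0 became 1 (Lgmn) without a filter, 30 with separate libraries, 7 with DESeq2, 23 with limma voom and 0 to 20 when leaving out 1 sample. For tamoxifen in cortex 0 became 3 with separate libraries and 0 to 2 when leaving out 1 sample, in hippocampus 6 with separate libraries, and for the difference 10 with separate libraries and 1 with limma voom. Scaled to the sum of gene rows, 10.6% of all genes were higher in controls. Separate libraries gave 22.2% of all genes higher and 19.4% lower between regions in controls, and 14.5% and 18.4% with tamoxifen. For tamoxifen they gave 1.24% and 2.11% in cortex, 1.25% and 0.651% in hippocampus, and 2.73% and 2.45% for the difference. Without a filter 0.918% were higher between regions with tamoxifen, and limma voom called 0.155% lower for the difference. P-values of separate libraries are too small if neighbours repeat 1 sample. Otherwise the cause was not tested.

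Samples of one letter share only a letter: their A minus B differences correlated at -0.405 to 0.283 over the 6 pairs of groups (0.283 between the cortical, -0.24 between the hippocampal and 0.257 between the control groups). With the letter as a replicate block 1 member (Arsb) was called between regions in controls, against 0.0941% of all genes higher. In other comparisons 0 members were called. With the library number as a replicate block over 16 libraries, 35 members were called between regions in controls and 27 with tamoxifen. All were higher, against 20.6% and 13.3% of all genes. Members called lower for tamoxifen were 1 in cortex, 2 in hippocampus and 7 for the difference, against 1.44%, 0.131% and 1.1%. With letters crossed in the hippocampal tamoxifen group, a choice made after seeing the data, 26 members were called in controls. The share of all genes called higher was 6.42%, and 0 members were called in the other comparisons.

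Over samples left out, the hippocampal tamoxifen value ran from -0.45 to 0.24 for Ctss, -0.47 to 0.081 for Grn and -0.61 to 0.018 for Cd68, positive without hippocampal control B. Of 980 recomputed values of named genes, 852 kept direction and side of the threshold, 49 lost and 76 gained a call and 3 reversed. The lowest count of a member in a library was 21. With 2 samples per group precision is limited.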
